A study of Mus musculus with 2 samples.

Results

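The peaks described here are those of the anti-FLAG library that crowd together along the genome. Each peak on chromosomes 1 to 19 was placed by its middle in a window of 100 kb, called a bin, and the peaks in bins that hold 15 or more were kept. They number 12557 of the 97640 peaks on these chromosomes, or 12.9%, and of 99797 peaks in the whole list. They lie in 692 of 23987 bins with sequence, or 2.88%, which are called dense bins below. The members were chosen by the number of peaks per bin, a value measured in these same data, so that number and the signal and shape of the peaks are given as a description only.

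The series holds 2 CUT&Tag libraries, 1 with anti-FLAG and 1 with anti-IgG, the latter a negative control. Both came from the hippocampus of C57BL/6J mice with the genotype CamK-PARIS and without treatment. The labels give the genotype by that name alone. They do not state the age of the mice or whether animals were pooled, and the IgG library was not analysed here. In CUT&Tag an antibody brings the transposase Tn5 to chromatin, and the enzyme cuts and tags the DNA next to the antibody's target. The target here is PARIS, a zinc-finger repressor with a KRAB domain, read through its FLAG peptide. With 1 library there is no replicate error, peaks of a bin share that library, and depth is unknown from these files. No difference below was therefore tested, and the intervals are 95% Wilson intervals that cover counting error over peaks, bins or genes.

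Mammalian chromosomes alternate between stretches rich in G and C and stretches rich in A and T. The GC-rich stretches hold more genes per length, more CG dinucleotides and fewer long interspersed repeats, and they tend to be open in many cell types.

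To show what such DNA looks like, the sequence at the highest peak without annotated untranslated sequence is printed for the 4 bins with the most peaks, as 300 bases of the plus strand of GRCm38 (mm10). Capitals mark CG dinucleotides.

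Nr1d1, chr11:98773885-98774184: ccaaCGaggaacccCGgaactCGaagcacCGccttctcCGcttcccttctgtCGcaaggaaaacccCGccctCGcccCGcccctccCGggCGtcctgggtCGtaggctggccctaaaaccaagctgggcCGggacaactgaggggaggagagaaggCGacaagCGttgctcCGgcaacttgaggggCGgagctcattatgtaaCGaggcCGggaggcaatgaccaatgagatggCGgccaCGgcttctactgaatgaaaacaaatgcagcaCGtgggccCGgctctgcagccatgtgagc

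Dlgap4, chr2:156682924-156683223: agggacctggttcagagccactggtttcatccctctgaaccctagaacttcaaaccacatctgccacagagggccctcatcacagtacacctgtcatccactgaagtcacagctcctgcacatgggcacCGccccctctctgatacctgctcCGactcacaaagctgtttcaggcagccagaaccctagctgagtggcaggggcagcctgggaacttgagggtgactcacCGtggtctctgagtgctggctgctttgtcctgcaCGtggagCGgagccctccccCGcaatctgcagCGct

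2900026A02Rik, chr5:113180131-113180430: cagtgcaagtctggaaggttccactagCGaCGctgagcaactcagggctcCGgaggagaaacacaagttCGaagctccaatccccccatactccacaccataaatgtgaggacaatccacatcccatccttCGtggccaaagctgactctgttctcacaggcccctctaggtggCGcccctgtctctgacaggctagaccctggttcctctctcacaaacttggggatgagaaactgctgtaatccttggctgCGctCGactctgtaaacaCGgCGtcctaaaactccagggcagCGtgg

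Ppp1r1b, chr11:98346459-98346758: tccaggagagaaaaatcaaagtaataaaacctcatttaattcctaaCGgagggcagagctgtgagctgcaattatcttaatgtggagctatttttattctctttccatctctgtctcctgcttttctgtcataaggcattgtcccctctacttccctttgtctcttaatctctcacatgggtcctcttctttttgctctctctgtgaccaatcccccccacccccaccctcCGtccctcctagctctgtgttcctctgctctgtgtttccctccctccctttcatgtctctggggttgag

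The 4 stretches differ in composition. The stretch 1287 bp downstream of a start of Nr1d1 had 23 CG dinucleotides and 62.7% GC, the introns of Dlgap4 and 2900026A02Rik had 7 and 11 with 59.0% and 55.3% GC, and the one upstream of Ppp1r1b had 2 with 47.0% GC. The insulin response sequence reported for PARIS, TATTTTT or TATTTTG on either strand, occurred once in the last stretch and in none of the others. The palindrome CACGTG, the E-box bound by clock proteins, occurred once in the Nr1d1 stretch and once in the Dlgap4 stretch. The letters TGACTCA, the element of AP-1 factors such as Fos and Jun, occurred once in the Dlgap4 stretch. These last 2 motifs were chosen after the sequences had been seen.

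From 1 to 21 peaks per bin the number of bins fell at each step, from 4160 to 26, so the threshold of 15 lies within a continuous fall. There were 219 bins of 14 peaks just outside the threshold and 158 bins of 15 peaks just inside it. The peaks of these bins had median maximum signals of 108 and 106, and 55.6% and 54.3% of them had a constant height. Dense bins held a median of 17 peaks, and 36 of them held 25 or more, up to 37. A bin on these chromosomes held a median of 3, and 3376 bins held none.

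**Figure D1:**
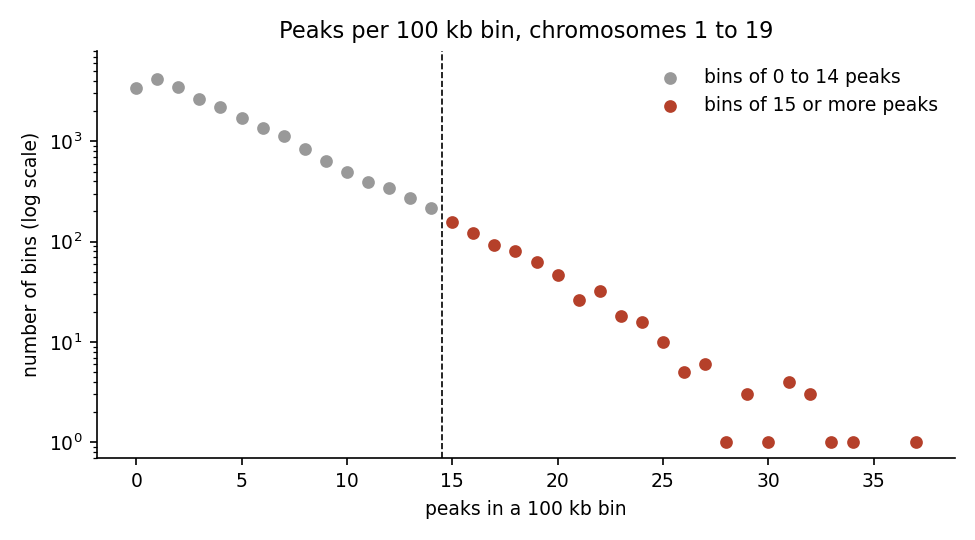
Number of 100 kb bins (log scale) against the number of peaks in the bin on chromosomes 1 to 19; the dashed line is the threshold of 15 peaks. Counts fall from 219 bins of 14 peaks to 158 bins of 15 peaks without a break, and the last point is the bin of 37 peaks.

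Dense bins were spread out rather than tight clusters. The distance from the first to the last peak of a dense bin had a median of 90.3 kb, and its smallest value was 51.1 kb. Gaps between neighbouring peaks of the same dense bin had a median of 2637 bp, and 28.3% of them were 1 kb or shorter. When peaks within 1 kb were joined, a dense bin still had a median of 13 separate groups of peaks, with 6 as the lowest and 22 as the highest. Peaks covered a median of 8.36 kb of a dense bin. The crowding also ran over bin borders: over the 1383 sides of dense bins with a neighbouring bin, the neighbour held a median of 10 peaks. It was itself dense by the rule on 368 sides and held no peak on 4, and a bin between 2 dense bins counts on both sides. Of the dense bins, 308 (44.5%) lay in 124 runs of adjacent dense bins, and the longest run had 6.

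Dense bins differed from the others most plainly in base composition, which the rule did not use. Their GC content was 49.5% in the median (quartiles 47.8% and 51.3%), against 41.3% in the other bins (38.7% and 44.2%). The lowest GC content of a dense bin was 40.7%. Below 38% GC 0 of 4207 bins were dense and from 38% to 40% 0 of 4585, while 217 of 1199 bins (18.1%, 16.02 to 20.4) from 48% to 50% and 289 of 819 bins (35.3%, 32.1 to 38.6) at 50% or more were. CG dinucleotides had a median of 14.5 per kb in dense bins and 7.62 in the others, and repeat-masked sequence a median of 23.8% and 32.0%. The difference in median GC content had the same direction on 19 of 19 chromosomes, from 6.25 to 9.40 percentage points. Whether the base composition of the DNA or the reads shaped these peak counts was not tested.

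Protein-coding genes were also more frequent in dense bins, with a mean of 2.43 gene starts per bin against 0.819. Bins of similar GC content differed much less by gene starts. From 46% to 50% GC, 8.43% of bins without a gene start, 10.4% of bins with 1 to 2 and 13.01% of bins with 3 or more were dense. At 50% GC or more these shares were 31.4%, 33.1% and 38.5%. Gene bodies covered a median of 73.1% of a dense bin and 31.1% of another bin. Dense bins lacked a protein-coding gene start less often than the others. The counts were 153 of 692 (22.1%, 19.2 to 25.4) against 13762 of 23295 (59.1%, 58.4 to 59.7).

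**Figure D2:**
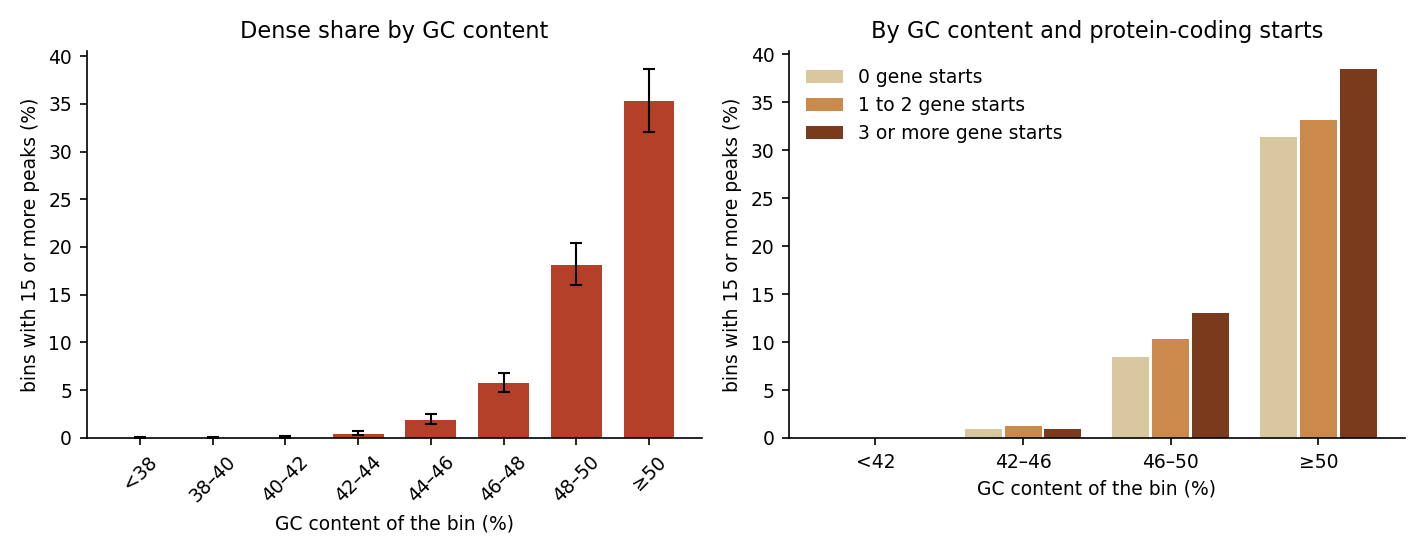
Share of 100 kb bins with 15 or more peaks, left by GC content of the bin with 95% Wilson intervals and right by GC content and number of protein-coding gene starts. The share reaches 35.3% at 50% GC or more, and at that GC content it is 31.4% without a gene start and 38.5% with 3 or more.

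The chromosomes contributed unequally. On chromosome 11, 77 bins (6.49% of its bins) were dense and held 20.9% of its peaks. On chromosome 15 the 50 dense bins held 20.7% of the peaks, and on chromosome 5 the 70 dense bins held 18.6%. Chromosome 3 was lowest, with 12 dense bins and 4.14% of its peaks. Over the 19 chromosomes the share of peaks in dense bins was 12.5% ± 5.42 (SD over chromosomes).

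The bin with the most peaks lies on chromosome 11, from 98700001 to 98800000, and holds 37. Its genes are Csf3 (granulocyte colony-stimulating factor), Med24 (a Mediator subunit), Thra (thyroid hormone receptor alpha), Nr1d1 (REV-ERBα, a repressor of the circadian clock) and Msl1 (a subunit of a histone acetyltransferase complex). The maximum signal of the 37 peaks ran from 27 to 383 with a median of 174, and 28 of them did not have a constant height. Thra held 12 of the peaks within its body. The highest peak, 383, lay inside Nr1d1 near its start, at 98773885 to 98774541, and a peak of 1608 bp with a maximum of 283 covered that start. Between the starts of Nr1d1 and Msl1 lay 6 peaks that the authors' table classes as distal intergenic, the highest at 327, and 1 classed as promoter, at 201.

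The second bin shows another layout. It lies on chromosome 2, from 156600001 to 156700000, and 30 of its 34 peaks fell within Dlgap4, which encodes a scaffold protein of the postsynaptic density. None of its peaks lay within 1 kb of the start of Dlgap4, and 29 were intronic in the authors' table. The maximum signal ran from 21 to 353 with a median of 109, and 19 of the 34 peaks had a constant height. The third bin, on chromosome 5 from 113100001 to 113200000, lay wholly inside the gene 2900026A02Rik, with 33 peaks of 14 to 336.

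The fourth bin, on chromosome 11 from 98300001 to 98400000, had 32 peaks and holds Neurod2, a transcription factor of excitatory neurons, and Ppp1r1b, which encodes the phosphatase inhibitor DARPP-32. It also holds Stard3 (a cholesterol transporter of late endosomes), Tcap (a titin-binding protein of the sarcomere), Pnmt (the enzyme that makes adrenaline) and Pgap3 (an enzyme of GPI anchors). Neurod2 had 3 peaks within 1 kb of its start, the highest at 180. The highest peak of the bin, 512, was the one upstream of Ppp1r1b whose sequence is given above.

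**Figure D3:**
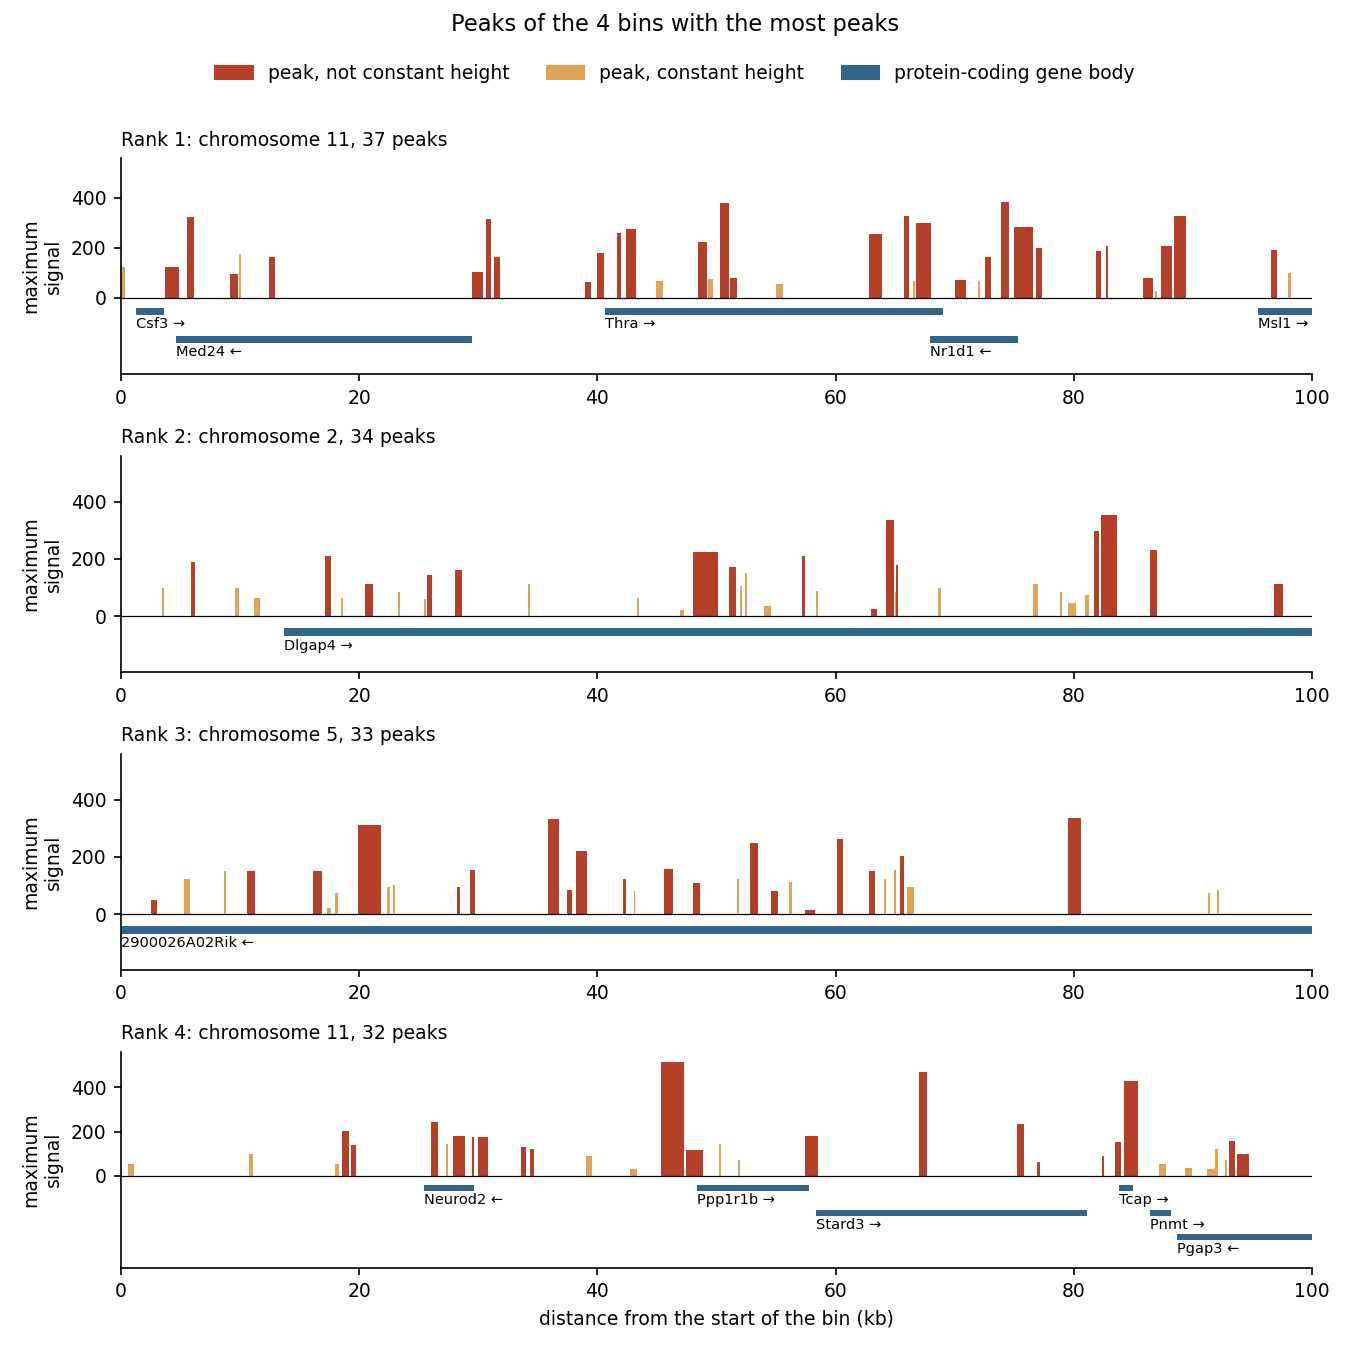
Peaks of the 4 bins with the most peaks, as bars as wide as the peak and as high as the authors' maximum signal, against the distance from the start of the bin in kb; blue bars are protein-coding gene bodies and arrows give their direction. In the bin of 37 peaks the peaks are spread over Med24, Thra, Nr1d1 and the sequence between Nr1d1 and Msl1, while in the second bin 30 of 34 lie within Dlgap4.

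Gene number varied widely between the longest runs of dense bins. The longest, 6 bins on chromosome 5 from 120100001 to 120700000, held 103 peaks, a highest maximum signal of 365 and 13 genes. They include Lhx5 (a LIM homeobox factor), Dtx1 (a Notch pathway ubiquitin ligase), Rasal1 (a Ras GTPase activator), Tpcn1 (a channel of endolysosomes), Slc8b1 (the mitochondrial sodium and calcium exchanger), Sds and Sdsl, and Rbm19. A run of 5 bins on chromosome 11 from 118500001 to 119000000 held 110 peaks and parts of only 2 protein-coding genes, Rbfox3 (the neuronal splicing factor NeuN) and Enpp7. A run of 5 bins on chromosome 10 from 81100001 to 81600000 held 106 peaks and 34 genes, among them Map2k2, Eef2, Atcay, Nfic, Celf5, Gna11 and Tle2. In that run 52 peaks lay within 1 kb of a transcription start site (TSS), against 12 in the run of Rbfox3.

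In the authors' table, peaks of dense bins were assigned to 2060 genes of 17908 with any autosomal peak, and 410 of the genes had 10 or more. Rbfox3 led with 101, all of its peaks, of which 66 did not have a constant height. Gse1 followed with 74 of 74, and Celf4, a neuronal RNA-binding protein, had 60 of its 91 peaks in dense bins. The postsynaptic scaffold gene Shank2 had 52 of 63, and Lingo1, a neuronal receptor subunit that restrains myelination and axon growth, had 44 of 50. Others with many were Hivep3 with 43, E130006D01Rik with 42, the calcium pump gene Atp2b2 with 39, Phactr3 with 37, Abr and Nav2 with 36 each, 2900026A02Rik and the GABA-B receptor subunit gene Gabbr2 with 35 each, and Pgbd5 with 34. Most of these genes are long, from 70.6 kb (Pgbd5) to 701 kb (Nav2) for those matched to a protein-coding gene of GENCODE M21. Length alone did not mark the genes that start in dense bins: the 1679 genes with a start there had a median length of 12.6 kb, against 18.3 kb for the other 19101.

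The peaks themselves were taller and wider in dense bins. Maximum signal was 110 in the median (quartiles 73 and 153), against 100 (65 and 133) for the other peaks. Width had a median of 438 bp against 354 bp, and total signal a median of 29530 against 24045. Peaks with a maximum of 400 or more made up 1.69% (1.48 to 1.93) of dense-bin peaks and 0.645% (0.594 to 0.701) of the others. Peaks of 1500 bp or wider made up 2.32% and 0.845%. The dense bins thus held 12.9% of autosomal peaks and 16.7% of their total signal. All these values come from the peak calls that also chose the members.

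A peak is called constant-height when its total signal is at least 99% of its maximum signal times its width, which is the outline of a rectangle. In dense bins 51.0% of peaks (50.2 to 51.9) had this shape, against 65.0% (64.6 to 65.3) elsewhere, and the share was lower in dense bins on 19 of 19 chromosomes. It fell over the classes of bins from 76.0% in bins of 1 to 2 peaks to 54.6% in bins of 15 to 16 and 40.9% in bins of 25 or more. Leaving out these peaks before counting left 45 dense bins with 763 peaks. The 6148 dense-bin peaks of other shapes had a median maximum of 150, against 132 outside dense bins. Constant-height peaks had medians of 92 and 91.

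Dense bins were mixed inside. The lowest maximum signal of a bin had a median of 24 over the 692 bins, the median of a bin had a median of 111, and the highest had a median of 318.5. Constant-height peaks ranged from 5.56% to 86.7% of a bin, and every dense bin held both shapes. Peaks within 1 kb of a TSS were absent from 101 dense bins and formed the majority in 48.

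Positions relative to genes differed between dense and other bins. The distal intergenic share fell from 56.9% in bins of 1 to 2 peaks to 14.9% in bins of 25 or more. The share within 1 kb of a TSS did not keep step with the peak count. Promoters, taken by the authors as within 3 kb of a TSS, held 36.6% (35.8 to 37.5) of dense-bin peaks and 22.8% (22.5 to 23.1) of the others. Introns held 36.8% and 38.5%, and distal intergenic sequence 19.4% (18.7 to 20.1) and 33.4% (33.1 to 33.7). Within 1 kb of a TSS were 20.9% (20.2 to 21.6) and 14.4% (14.2 to 14.7). The last share was higher in dense bins on 18 of 19 chromosomes, with chromosome 2 at 14.9% in both. It rose to 22.6% (21.4 to 23.9) in bins of 17 to 19 peaks and stood at 16.5% (14.4 to 18.9) in bins of 25 or more. In those 36 bins introns held 45.5% of peaks.

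**Figure D4:**
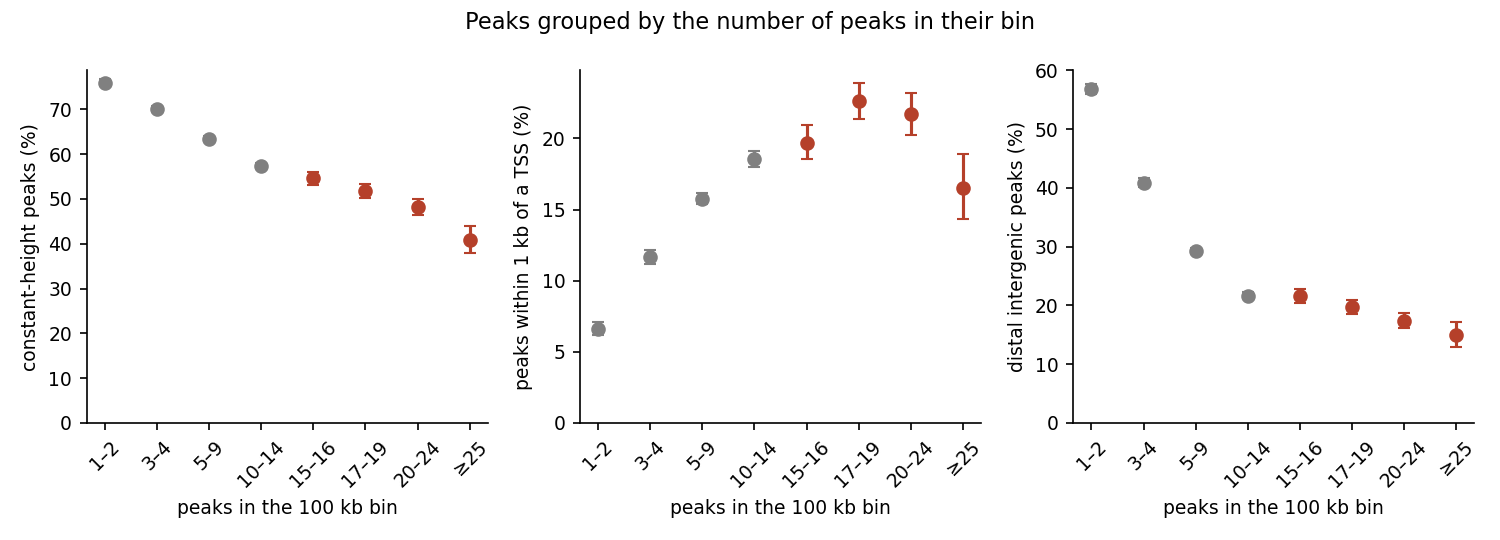
Share of constant-height peaks, of peaks within 1 kb of a TSS and of distal intergenic peaks against the number of peaks in the bin, with 95% Wilson intervals; red points are dense bins. Constant-height peaks fall from 76.0% to 40.9%, while the share near a TSS is highest at 17 to 19 peaks and 16.5% at 25 or more.

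Bins of the same GC content were set side by side to see which of these differences stay. From 48% to 50% GC, 19.99% (18.8 to 21.3) of dense-bin peaks and 20.4% (19.6 to 21.3) of other peaks lay within 1 kb of a TSS. From 50% to 52% the shares were 22.0% (20.6 to 23.4) and 24.4% (23.2 to 25.8). Constant-height peaks remained less frequent in dense bins, at 52.04% (50.5 to 53.6) against 57.7% (56.6 to 58.7) from 48% to 50% and at 49.8% (48.1 to 51.5) against 55.4% (53.8 to 56.9) from 50% to 52%. Median maximum signal from 50% to 52% was 112 against 107. At 52% or more the share near a TSS was 29.3% (27.5 to 31.2) in dense bins and 27.7% (24.7 to 31.0) in the others, and below 48% it was 16.5% against 17.03% from 46% and 13.5% against 14.8% from 44% to 46%. The share near a TSS was thus higher in dense bins in 1 of the 5 bands, with overlapping intervals, while constant-height peaks were fewer in dense bins in all 5.

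The DNA under the peaks followed the bins. In 200 bp windows centred on each peak's region of maximum signal, GC content was 53.1% ± 7.44 (SD over windows) in dense bins and 48.5% ± 8.93 elsewhere. At 1000 bp to the left it was 50.6% ± 7.64 and 44.9% ± 8.31, so the rise from flank to peak was 2.51 percentage points in dense bins and 3.55 elsewhere. Flanks were not screened for other peaks. Gaps of 1 kb or shorter made up 28.3% of those in dense bins and 13.7% elsewhere, so dense-bin flanks can overlap peaks more often. How far this shaped the flank values was not tested. CG dinucleotides were present in 89.8% of dense-bin windows and 80.9% of the others, with medians of 3 and 2 per window. The insulin response sequence was found in 6.17% (5.76 to 6.61) of dense-bin windows and 10.5% (10.3 to 10.7) of the others, and in 8.27% and 14.3% of the left flanks. It was therefore less frequent at the peaks than beside them in both sets. Peak windows were richer in GC than flanks, and this AT-rich sequence was not compared between peak and flank at matched GC content. In bins of equal GC content the shares were 7.10% (5.64 to 8.90) in dense bins and 9.03% (8.60 to 9.48) in the others from 44% to 46%, and 7.29% and 7.82% from 46% to 48%. They were 6.75% (6.00 to 7.59) and 6.33% (5.82 to 6.87) from 48% to 50%, 5.37% and 5.38% from 50% to 52%, and 4.24% and 5.22% at 52% or more.

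The letters TGACTCA or TGAGTCA occurred in 6.20% (5.80 to 6.64) of dense-bin windows against 3.74% (3.42 to 4.09) of their left flanks. The other peaks gave 6.80% and 3.64%. The E-box CACGTG occurred in 3.83% (3.51 to 4.18) of dense-bin windows and 3.66% of their flanks, and in 3.02% and 2.64% elsewhere. A match says only that these letters are present.

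Which genes start in dense bins was read from 19 gene lists, beside the 1679 of 20780 protein-coding gene starts (8.08%) that do so. The dense bins were chosen by their peak counts, so these counts are descriptions and were not tested. Counts are over list members on the 19 chromosomes, and the lists of postsynaptic scaffolds and of synaptic vesicle genes had the highest shares. Of the postsynaptic scaffold genes 6 of 15 started in a dense bin, among them Dlgap4 (34 peaks in its bin), Shank1 (22), Dlgap3 (19), and Dlg4 and Homer3 (15 each). Of the genes of synaptic vesicles and their release 9 of 23 did, among them Cplx2 (26), which encodes a complexin that clamps fusion, Syt3 (22), and Rab3a and Unc13a (19 each). Median peak counts of the bins were 12 for both lists, against 5 for all protein-coding genes.

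Markers of excitatory neurons followed with 6 of 18. They were Neurod2 (32), the kinase genes Camk2a (29) and Camk2b (25), the vesicular glutamate transporter gene Slc17a7 (19), Wfs1 (16) and Bcl11b (15). Of the markers of interneurons 1 of 18 started in a dense bin, Slc32a1 (18), the vesicular transporter of GABA and glycine. For astrocytes it was 0 of 14, for oligodendrocytes 0 of 15 and for microglia 1 of 15, Aif1 (17). Median peak counts of the bins differed less: 7.5 for excitatory, 6 for interneuron, 4.5 for astrocyte, 6 for oligodendrocyte and 7 for microglia markers. The median over all protein-coding starts was 5, and excitatory markers ranged from 2 (Neurod6) to 32 (Neurod2). Peaks near gene starts are given beside all protein-coding starts, of which 8350 of 20780 had a peak within 1 kb: 11 of 18 excitatory, 10 of 18 interneuron, 5 of 14 astrocyte, 4 of 15 oligodendrocyte and 3 of 15 microglia starts had one. Of liver genes 2 of 17 had one, and 0 of 17 started in a dense bin.

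Shares of channel and receptor genes are given beside the 8.08% of all protein-coding starts. They were 26.1% for calcium and sodium channel, 12.5% for potassium channel, 18.2% for glutamate receptor and 0% for GABA receptor genes. The lists are short, and differences between them were not tested. Among calcium and sodium channel genes 6 of 23 started in dense bins, with Cacnb1 (25), Cacna1g (23), and Cacna1h, Cacnb3 and Scn8a (20 each) in front. Among potassium channel genes it was 4 of 32, among them Kcnj9 (24). Glutamate receptor genes gave 4 of 22, Grik5 (26), Grm4 (18), Grin3b (17) and Grin2d (16), and GABA receptor genes 0 of 13. The bins of GABA receptor gene starts had a median GC content of 38.5%, against 44.5% for all protein-coding starts. Among neuronal RNA-binding proteins 4 of 24 started in dense bins, Celf5 (31), Nova2 (22), Rbfox3 (21) and Celf4 (15).

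Among genes that respond first to neuronal activity, the immediate early genes, 5 of 20 started in dense bins: Nr4a1 (25), Dusp1 and Junb (19 each), Jund (18) and Npas4 (16). Genes used in all cells gave 9 of 36 cytosolic ribosomal protein genes, led by Rpl19 (25) and Rps16 (22), and 0 of 34 respiratory chain genes. The share of all protein-coding starts was 8.08%. Skeletal muscle genes gave 3 of 16, Acta1 (22), and Casq1 and Myog (17 each). None of 39 Hox genes started in a dense bin, and the highest count of a bin with a Hox gene start was 10.

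Next, only starts in bins of high GC content were counted. GC content still varied within this class: 18.1% of bins from 48% to 50% GC and 35.3% of bins at 50% or more were dense. Of all protein-coding starts in bins of 48% GC or more, 28.6% lay in dense bins. Among the starts of the lists in such bins it was 6 of 7 for excitatory markers, 7 of 9 for synaptic vesicle genes, 5 of 7 for postsynaptic scaffolds, 5 of 11 for immediate early genes and 8 of 20 for cytosolic ribosomal protein genes. It was 0 of 9 for respiratory chain genes, 0 of 20 for Hox genes, 0 of 4 for astrocyte and 0 of 5 for oligodendrocyte markers, 0 of 2 for GABA receptor genes and 0 of 3 for liver genes. The astrocyte, oligodendrocyte, GABA receptor and liver lists had only 2 to 5 such starts, too few to set a 0 against 28.6%. The remaining lists gave 1 of 5 for interneuron and 1 of 6 for microglia markers, 2 of 10 for skeletal muscle genes, 4 of 11 for potassium channel genes, 4 of 9 for calcium and sodium channel genes, 4 of 8 for glutamate receptor genes, 3 of 6 for neuronal RNA-binding proteins and 1 of 2 for the genes linked to PARIS. Hox genes lie in tight clusters and so share bins.

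**Figure D5:**
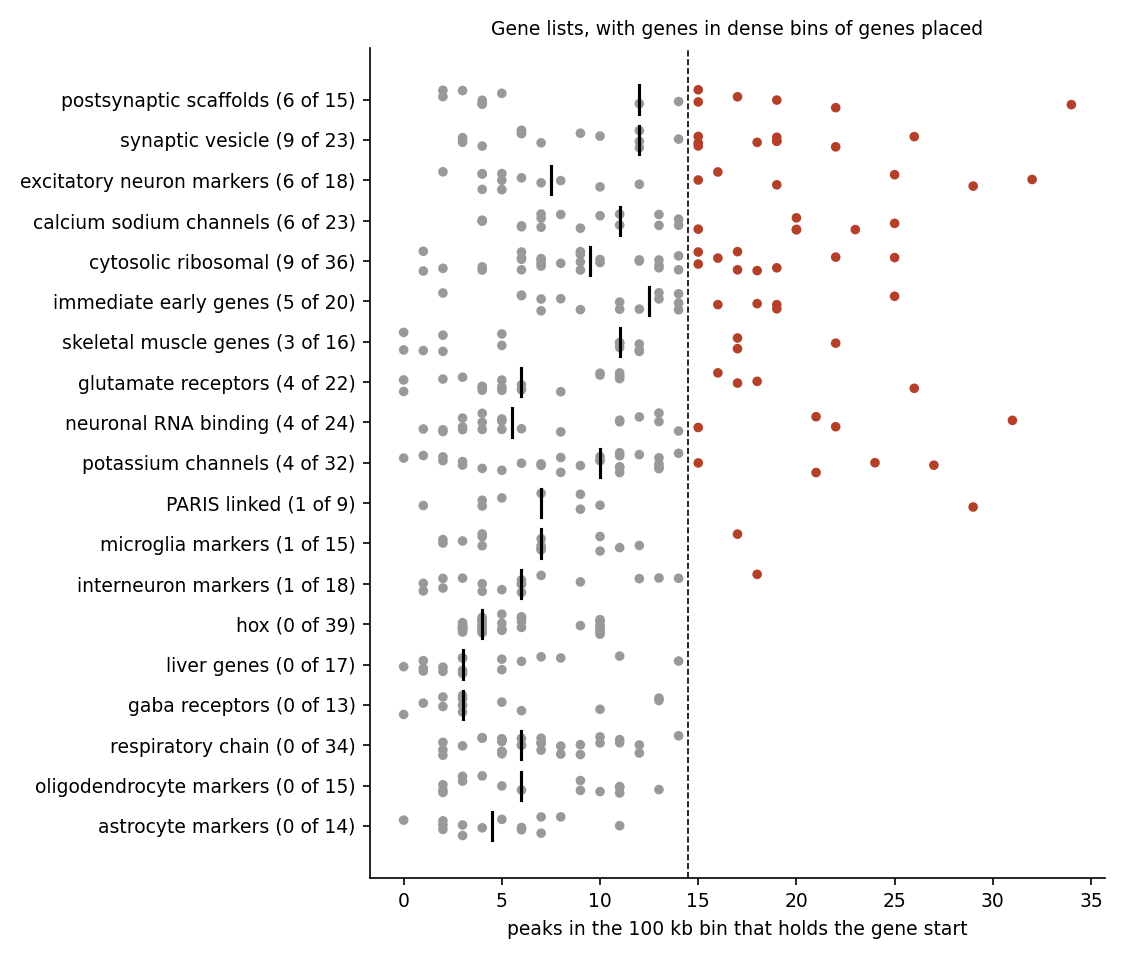
Number of peaks in the 100 kb bin that holds each gene's start, 1 point per gene, for 19 gene lists with the number of genes in dense bins; black ticks are medians, and the dashed line is the threshold. Dlgap4 lies farthest right with 34 peaks, and no Hox, respiratory chain, GABA receptor, astrocyte, oligodendrocyte or liver gene reaches 15.

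Starts in dense bins more often had a peak nearby, which the number of peaks in the bin favours by itself. Of the 1679 starts 65.9% (63.6 to 68.1) had a peak within 1 kb, against 58.2% (56.5 to 59.9) in bins of 10 to 14 peaks and 37.9% (37.2 to 38.6) in all other bins. Nova2 had the highest peak among the list genes named above, 556 at its start, and Celf5 had 490 and Grik5 448. The start of Dlgap4 was 2018 bp from the nearest peak and that of Shank1 4006 bp.

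Of 9 genes linked to PARIS or to the genotype's name 1 started in a dense bin, Camk2a, a share (11.1%) close to the 8.08% of all protein-coding starts. That bin, on chromosome 18 from 60900001 to 61000000, held 29 peaks and ranked 13 of 692. Its peaks ran from 54 to 349 with a median of 109, and 15 had a constant height. Peaks lay along the whole of Camk2a, which held 21 of the 29, and the 3 highest (349, 300 and 219) all lay upstream of its start or across it. The bins of the other starts held 10 peaks for Mdm4, 9 for Pck1 and for Zfp746, the gene of PARIS, 7 for G6pc, 5 for Nrf1, 4 for Igfbp1 and for Tkt, and 1 for Ppargc1a.

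The tallest peaks of the list were partly members. Ranked by maximum signal, 27.8% (25.1 to 30.7) of the first 1000 autosomal peaks lay in dense bins, and ranked by total signal 29.9% (27.1 to 32.8). The 5 tallest members belonged in the authors' table to Slc8a2 (1478), a sodium and calcium exchanger, Slc25a42 (976), a mitochondrial coenzyme A transporter, Zbtb9 (969), Cmip (950) and Dlg4 (887), the scaffold PSD-95. The peak of Slc25a42 lay 268 bp upstream of its TSS on chromosome 8 (70211737 to 70212944), and that of Cmip in its first intron on chromosome 8 (117332055 to 117333048). By total signal the first 5 were those of Stac3 (1027054), Dlg4 (750412), the DNA methyltransferase gene Dnmt3a (744612), Slc8a2 (742571) and Zbtb9 (688566). The peak of Dnmt3a, 3615 bp at 3806358 to 3809972 on chromosome 12, lay in a bin of 27 peaks, of which 20 did not have a constant height.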

How the data were processed

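Only the anti-FLAG library has files here. Per the labels' protocols, trimmed read pairs were mapped by the authors with Bowtie2 (build mm10), duplicates and poor alignments were dropped, and SEACR called the peaks with IgG as its control. Versions, the SEACR mode and its stringency are not given in the sources used here. The deposited peak list gives total and maximum signal (coverage) as whole numbers with unstated scaling. A second deposited table gives classes and TSS distances of the regions of maximum signal, and the tool behind it is not stated.

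Peaks were binned by their middle. Bins with at least 50% known sequence in GRCm38.p6 (RefSeq, the mm10 build) served for comparison. Genes came from GENCODE M21, with 1 entry per symbol. Analyses used Python 3.11.15, pandas 2.3.3, SciPy 1.17.1 and pysam 0.24.0, and binning was tested on simulated data. Constant height is total signal of at least 99% of maximum signal times width. The genes named were those of the 5 bins with the most peaks, of the 3 longest runs, the 15 genes with the most members, those of the 5 highest members by maximum and by total signal, up to 4 per list and the 9 genes linked to PARIS. Further list genes and other genes were named after their values were seen. Some genes that the rule names are not reported here. The members and lists were chosen with earlier results of these data known. The alternatives were other thresholds, bin widths and positions, merged peaks and stricter peak sets.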

Additional observations from a re-analysis of the deposited data

How the results depend on the processing

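The 6 results were recomputed under 8 alternatives, 47 values in all, of which 15 stayed within the counting interval or within 1.5 times the count and 32 moved. Shifting the bins by 50 kb and placing peaks by the region of maximum signal moved none, with 12482 and 12543 peaks. At 12 or more peaks there were 1530 dense bins with 23326 peaks, of which 19.6% lay within 1 kb of a TSS and 53.4% had a constant height, a median GC of 48.5% and 15.99% of gene starts. At 20 or more these were 175 bins, 3999 peaks, 46.4% constant height, 50.8% GC and 1.99% of starts. Bins of 50 kb with 8 or more peaks gave 1778 bins, 52.03% constant height, 49.3% GC and 10.2% of starts. With peaks within 1 kb merged, 188 bins held 3076 peaks, 16.2% near a TSS, 47.1% constant height, 50.5% GC and 1.76% of starts. Only peaks above the median maximum signal gave 63 bins with 1073 peaks, 23.0% near a TSS, 28.9% constant height, 51.7% GC and 0.731% of starts. Without constant-height peaks 45 bins held 763 peaks, 21.6% near a TSS, 51.7% GC and 0.486% of starts. Fewer peaks enter the merged and stricter sets by construction, so fewer bins reach 15. For other moves the cause was not tested. The median GC of dense bins stayed above the 41.3% of other bins in all 8, while the share near a TSS came closest to the 14.4% of other peaks when peaks were merged. The 41.3% and 14.4% are those of the main setting and were not recomputed for the alternatives. No paired analysis was possible because each antibody has 1 library and 1 library only has files here. Depth is unknown, and animal-to-animal error cannot be given.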

Other observations

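Dense bins without any protein-coding gene body numbered 25, with 15 to 20 peaks each. They made up 3.61% of the 692 dense bins, while 8421 of 23295 other bins (36.1%) held no such body. These 25 bins were looked at after their values had been seen. The noncoding genes below were picked from them, and the share of all microRNA genes that lie in dense bins was not computed. The bin on chromosome 2 from 180800001 to 180900000 held 20 peaks and the gene of the microRNA Mir124a-3, and the bin on chromosome 14 from 64500001 to 64600000 held 17 peaks and Mir124a-1. Both give rise to miR-124, a microRNA abundant in neurons. A bin of 20 peaks on chromosome 9, from 122600001 to 122700000, held Mir138-1. An adjacent pair of bins on chromosome 6, from 31000001 to 31200000, held 16 and 18 peaks and Lncpint, and the first of them Mir29a and Mir29b-1. Another adjacent pair lay on chromosome 5, from 120200001 to 120400000, within the longest run and between Rbm19 and Lhx5, with 17 and 19 peaks. In these 25 bins GC content ran from 42.6% to 51.0%.

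Long noncoding genes also carried peaks in a bin with little protein-coding sequence. The bin ranked 9, on chromosome 2 from 30600001 to 30700000, held 31 peaks with 8.94% of its length in protein-coding gene bodies, and 21 of the peaks lay within the long noncoding gene 9330198N18Rik, with a maximum of 508.

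None of 1127 olfactory receptor genes (Olfr) and none of 328 vomeronasal receptor genes (Vmn1r and Vmn2r) started in a dense bin, and 423 and 190 of them started in bins without a peak. Of all 20780 protein-coding starts, 8.08% lay in dense bins and 1599 in bins without a peak. Receptor genes of these families lie in clusters and so share bins, and the GC content of their bins was not compared.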
